A study of Saccharomyces cerevisiae with 9 samples.

Results

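The transcriptome of a sam2Δ/sam2Δ diploid of budding yeast was compared with that of its wildtype parent. Every genic region that reached a signal of 10 in 3 or more of the 6 libraries of these strains was taken, which gave 6099 of the 7126 regions in the deposited table, and 6 of the 9 libraries of the series. Poly-A RNA had been sequenced in 3 libraries of each strain, from cells kept at 30 °C and harvested at OD600 0.5 to 0.6. The sam2Δ/sam2Δ strain had both copies of SAM2 replaced by a LEU2 cassette and was grown in SC medium without leucine, and wildtype was grown in SC with leucine. Both strains were MATa/α diploids of the W303 background, homozygous for ade2-101, ura3-52, trp1-Δ1, his3-Δ200 and leu2-3 and heterozygous for can1-100 and lys2-801. They also carried 2 copies of a chromosome fragment marked with TRP1 and SUP11. Loss of SAM2, gain of LEU2 and absence of leucine from the medium therefore change together, and their parts in any difference below cannot be told apart.

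SAM2 and SAM1 encode the AdoMet synthetases of yeast, which join methionine to ATP. AdoMet donates methyl groups to proteins, RNA, lipids and many small molecules, and the S-adenosylhomocysteine left behind is recycled to homocysteine, methionine and cysteine. Leucine is made from pyruvate through acetolactate and 2-isopropylmalate, partly in mitochondria. The transcription factor Leu3 turns on genes of this branch when 2-isopropylmalate is present, and Gcn4 turns on genes of most amino acid pathways when amino acids are scarce.

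Each deposited value, here called signal, is an estimated read number over a scaling factor specific to its library. Library totals were 9.38 to 10.7 M in sam2Δ/sam2Δ and 11.0 to 11.9 M in wildtype, and 1 read was worth 0.766 to 2.18 units of signal in sam2Δ/sam2Δ and 0.603 to 1.21 in wildtype. That amounts to about 4.90 to 12.2 M reads per sam2Δ/sam2Δ library and 9.31 to 18.2 M per wildtype library, so that genes close to the filter had few reads behind them. Wildtype replicate 1 stood apart. Its Pearson correlation with the other 5 libraries across genes was 0.87 to 0.94 on the log2 scale, against 0.99 between wildtype replicates 2 and 3, and it lay at one end of a first principal component that held 56.0% of the variance. The nearest library to it on that component was sam2Δ/sam2Δ replicate 3, and this library also held more signal of several mating genes than the other 5, given below. Results are therefore also given without these 2 libraries together, a choice made after the values were seen, and an unadjusted P then compares 2 libraries with 2. A log2FC is the difference in mean log2 of signal plus 1, sam2Δ/sam2Δ minus wildtype, from limma, and comes out too small where signal is low. Genes called below, or DEGs, met both cutoffs of the study, P of 0.05 or less before adjustment and a log2FC of 0.58 or more in either direction. Nothing in the labels states that the replicates are separate cultures, so P values measure the spread between these libraries.

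In sam2Δ/sam2Δ, 601 of 6099 genes (9.85%) were DEGs, of which 305 (5.0%) were upregulated and 296 (4.85%) downregulated. Counts of DEGs in the lists below stand against the 9.85% of all genes, and a count near that share is no result about the list. The median log2FC of all genes tested was -0.01. With libraries scaled to their totals instead, the median was 0.15 and the DEGs split into 544 upregulated and 181 downregulated. The signals of the strains did not overlap in 1361 genes (22.3%). After Benjamini-Hochberg adjustment over all genes 7 genes (0.115%) had an adjusted P of at most 0.05, and all were downregulated: SAM2, LEU1, OAC1, BAT1, ISU2, YOR225W and OYE3. The lowest adjusted P of an upregulated gene was 0.138, that of MCO6. Among the DEGs 110 had a log2FC above 1 and 102 below -1, and 129 share their locus with another gene, whose signal the authors' program divided between them. Of the 601 DEGs 275 were called in each of 6 fits with 1 library left out, and 416 were called without both libraries that stood apart. The fit without both called 687 of the 6099 genes, 362 higher and 325 lower, and list counts from it stand against that total. Only SAM2 kept an adjusted P of at most 0.05 in every one of the 6 fits. It alone passed when wildtype replicate 3 or any sam2Δ/sam2Δ replicate was left out, OAC1 passed too without wildtype replicate 2, and 8 genes passed without wildtype replicate 1. Where a named gene lost its call when 1 library was left out, the log2FC without that library stands in brackets.

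**Figure D1:**
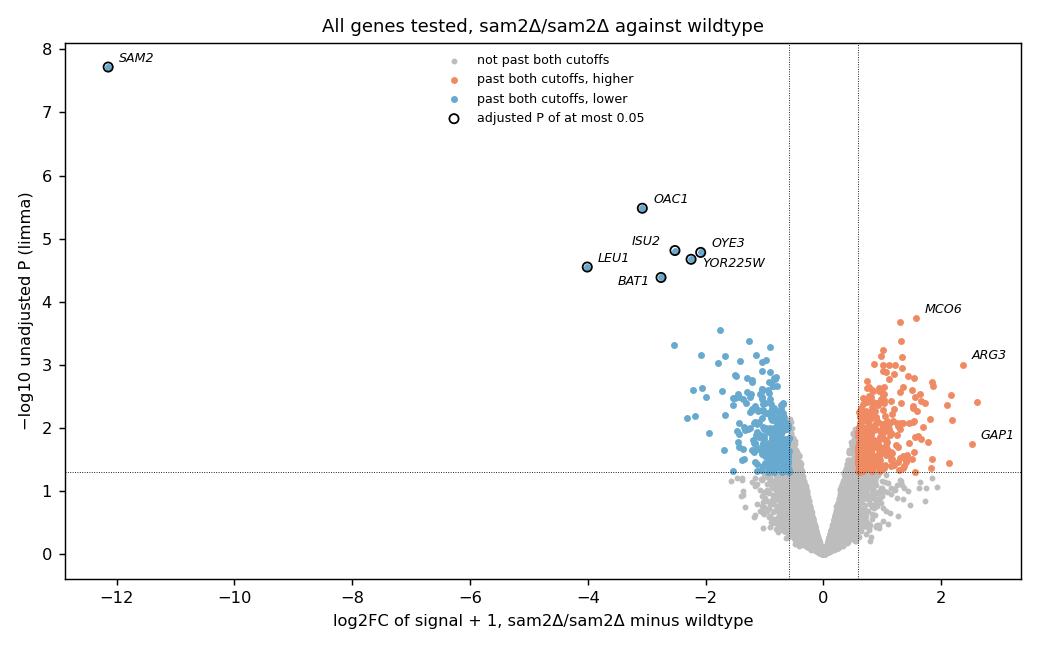
Each point is 1 of the 6099 genes tested, with the log2FC of signal plus 1 (sam2Δ/sam2Δ minus wildtype) on the x axis and the negative log10 of the unadjusted limma P on the y axis. Dotted lines are the 2 cutoffs, and the 7 ringed genes that passed an adjusted P of 0.05 all lie on the left, with SAM2 at -12.14.

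SAM2 (YDR502C, chromosome IV, 1453310 to 1454464) was all but absent from the deletion libraries. For SAM2, the sam2Δ/sam2Δ libraries held 2.43, 4.36 and 6.89, against 39411, 17280.0 and 19627 in the wildtype libraries. The log2FC was -12.14 (SE 0.42, adjusted P = 0.000117) and depends on the pseudocount, being -12.30 with 0.5 and -11.30 with 5. SAM1 (YLR180W, chromosome XII, 515262 to 516410), the paralog that makes AdoMet in its place, was downregulated too. Signals of SAM1 were 2417, 3519 and 3406 in sam2Δ/sam2Δ and 17140.4, 6030.3 and 4589 in wildtype. The groups did not overlap, and the log2FC was -1.34 (SE 0.49, adjusted P = 0.322), or -0.78 without wildtype replicate 1, which held the highest value. SAM1 lost its call without sam2Δ/sam2Δ replicate 1, 2 or 3 (-1.17, -1.44 and -1.42). Next to SAM2, RPL37B, PLM2 and LPP1 were not called (log2FC -0.40, 0.33 and -0.16), with PLM2 at -0.19 without wildtype replicate 1. SPG3, a gene of stationary phase survival, was called at -0.86, on signals of 27.9 to 38.3 in sam2Δ/sam2Δ and 52.7 to 64.2 in wildtype.

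Several of the largest falls beside SAM2 were in genes of leucine and valine synthesis, and 4 of these genes share a Leu3 motif in front of the start codon. In the S288C reference genome (build R64) the motif CCGGNNCCGG, the same on both strands, was searched in the 500 bases before each start codon, a window that can reach into the neighbouring gene. It was found at LEU1, BAT1, ILV5, ILV2 and LEU2 of the 13 genes of this list. The stretches of 30 bases around it are shown because these genes include the largest changes, together with 3 other downregulated genes, BAP2, FSF1 and DRE2, that hold the motif. All read 5′ to 3′ on the strand of the gene, with the motif in capitals.
LEU1, chrVII:478850-478879, minus strand: aacgaaaattCCGGGACCGGcgaaatttgc
BAT1, chrVIII:517375-517404, plus strand: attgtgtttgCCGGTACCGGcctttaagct
ILV5, chrXII:839611-839640, minus strand: gcggtctcctCCGGTACCGGttctgccacc
ILV2, chrXIII:483606-483635, plus strand: ccggagcctgCCGGTACCGGcttggcttca
LEU2, chrIII:91116-91145, plus strand: ggtgagagcgCCGGAACCGGcttttcatat
BAP2, chrII:376057-376086, minus strand: ttttgtgggaCCGGAACCGGcatccacatt
FSF1, chrXV:832176-832205, minus strand: gtactggcgtCCGGTACCGGagcgtaccag
DRE2, chrXI:576128-576157, minus strand: ttgacatatcCCGGTACCGGaataagtccg
The first base of the motif lay 217 bases before the start codon of LEU1, 147 before that of BAT1, 377 before that of ILV5, 468 before that of ILV2 and 198 before that of LEU2. The 2 bases at the centre differ, and BAT1, ILV5, ILV2, FSF1 and DRE2 have TA there. Of 5645 tested genes with an annotated coding region, 16 (0.283%) held the motif in this window. They include 8 of 259 downregulated DEGs (3.09%), namely LEU1, BAT1, ILV5, ILV2, BAP2, FSF1, DRE2 and MGM101, and 0 of 278 upregulated DEGs. The other holders, named for this reason and not by their change, were LEU2, GDH1, GAT1, ATP5, NPL3, AAN1, GAL11 and BRO1. A match says only that these letters are present.

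Among the leucine, isoleucine and valine genes, 6 of 13 tested members were downregulated and 0 upregulated (median log2FC -0.38). LEU1 (YGL009C, chromosome VII, 476313 to 478652) encodes isopropylmalate isomerase. In sam2Δ/sam2Δ LEU1 was at 2212, 2594 and 2923, against 22926, 65179 and 46924 in wildtype. Every wildtype value was more than 7 times every mutant value, and wildtype replicate 1 held the lowest of the 3 (log2FC -4.01, SE 0.41, adjusted P = 0.0286). OAC1, a carrier of oxaloacetate and isopropylmalate in the inner mitochondrial membrane, has no match to the motif in its window. OAC1 had a signal of 538, 573 and 717 in the sam2Δ/sam2Δ libraries, against 4066, 6307 and 5171 in wildtype. Its unadjusted P was the lowest after that of SAM2 (log2FC -3.07, SE 0.23, adjusted P = 0.01). BAT1, the mitochondrial branched-chain aminotransferase, gave 2854 to 4144 in sam2Δ/sam2Δ and 16692 to 29577 in wildtype (log2FC -2.76, SE 0.30, adjusted P = 0.0358). BAT2, its cytosolic counterpart, was not called with all 6 libraries (0.41), but was called without wildtype replicate 1 (0.66). For BAT2, the sam2Δ/sam2Δ libraries held 4079, 3661 and 5039, against 4462, 2976 and 2406 in the wildtype libraries.

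The earlier steps, which leucine and valine share, were called with smaller changes. ILV5, the reductoisomerase, was at 8351 to 11006 in sam2Δ/sam2Δ and 24176 to 36686 in wildtype (log2FC -1.67, SE 0.29, adjusted P = 0.214). ILV3, the dihydroxyacid dehydratase, was at 7032 to 12387, against 18689 to 19548 in wildtype (log2FC -1.01, SE 0.29, adjusted P = 0.253), and ILV2, the acetolactate synthase, at 8323 to 13581, against 17016 to 22038 in wildtype (log2FC -0.87, SE 0.29, adjusted P = 0.29). ILV2 lost its call without wildtype replicate 2 (-0.77) or sam2Δ/sam2Δ replicate 2 or 3 (-0.71 and -0.84). ILV6, the regulatory subunit of acetolactate synthase, was at -0.38 and did not pass. LEU2 holds the motif and is also the gene of the inserted cassette, and the table does not separate transcripts of the cassette from those of the leu2-3 alleles. Signals of LEU2 were 11996, 23469.8 and 12412 in sam2Δ/sam2Δ and 10979, 20567 and 13997 in wildtype. The groups interleaved, and the log2FC was 0.05 (SE 0.39), with -0.27 when sam2Δ/sam2Δ replicate 2 was left out and -0.16 when wildtype replicate 1 was. The synthase genes LEU4 and LEU9, LEU3 itself and the threonine deaminase ILV1 had a log2FC of -0.10, -0.31, 0.16 and -0.14 and were not called. Leaving out 1 library gave 5 to 7 of the leucine, isoleucine and valine genes called.

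**Figure D2:**
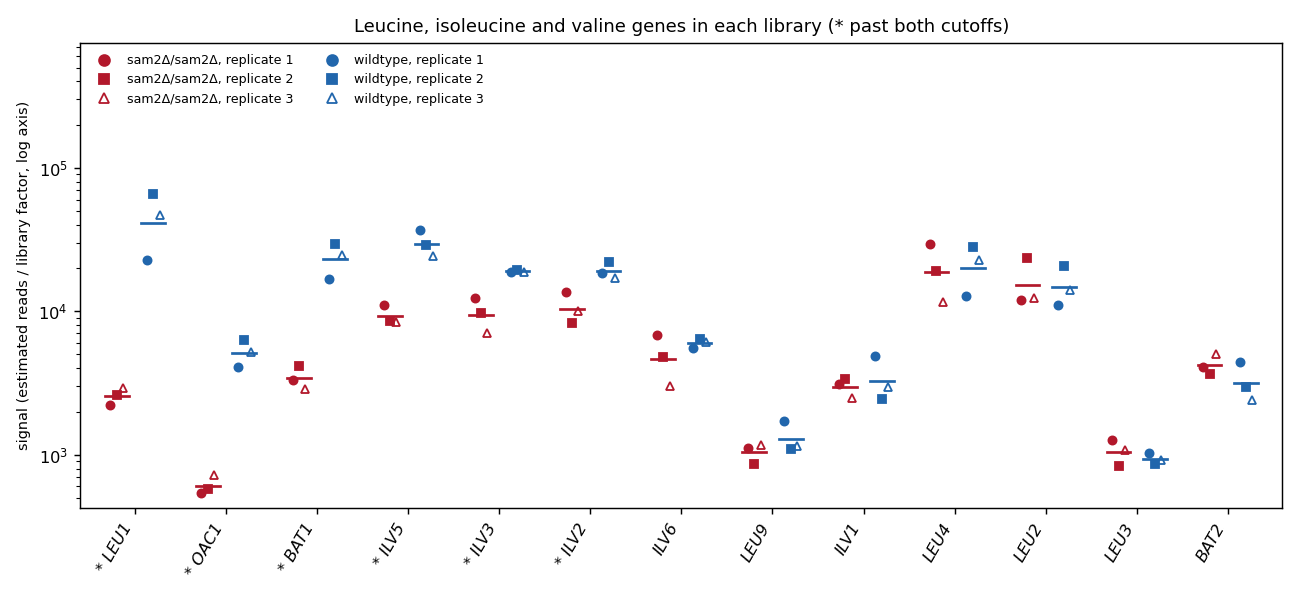
Signal of the 13 leucine, isoleucine and valine genes in each library on a log axis, with sam2Δ/sam2Δ (red) left of wildtype (blue), 1 symbol per replicate and a bar at the geometric mean. An asterisk marks the 6 genes past both cutoffs, and in each of these every red value lies below every blue one.

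Among other genes with the Leu3 motif, BAP2, a permease for branched-chain amino acids, was downregulated. In sam2Δ/sam2Δ BAP2 was at 7638, 5214 and 4298, against 9216, 21378 and 17175 in wildtype. Its groups did not overlap (log2FC -1.43, SE 0.39, adjusted P = 0.247). FSF1, a mitochondrial membrane protein of the sideroflexin family, was at 129.9 to 283 in sam2Δ/sam2Δ, against 633 to 1554 in wildtype (log2FC -2.06, SE 0.44, adjusted P = 0.222). The neighbouring permease gene TAT1, whose product also takes up branched-chain amino acids, was at 490.3 to 733 in sam2Δ/sam2Δ and 969 to 1194 in wildtype (log2FC -0.90, SE 0.21, adjusted P = 0.224), and has no match in its window.

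Arginine and histidine synthesis genes moved the other way. In the arginine synthesis genes, 7 of 10 tested members were upregulated and 0 downregulated, with a median log2FC of 1.19. Among the histidine synthesis genes, 4 of 6 tested members were upregulated and 0 downregulated (median log2FC 0.96). No members of these 2 lists had an adjusted P of at most 0.05, and the lowest were 0.214 for ARG3 and 0.233 for HIS5. All 10 arginine genes and 5 of 6 tested histidine genes hold TGACTC, the core of the site bound by Gcn4, in their 500-base window on one strand or the other, as do 733 of all 5645 genes (12.98%), and among these 62 of 278 upregulated DEGs (22.3%) and 41 of 259 downregulated DEGs (15.8%). The motif is also present at 10 of the 13 leucine, isoleucine and valine genes. The copy nearest to the start codon is shown for 5 genes that rose, with the motif, or its reverse complement GAGTCA, in capitals.
ARG3, chrX:268473-268502, plus strand: agggtcacgtcgTGACTCatatgctttctt
ARG7, chrXIII:396514-396543, minus strand: ggacaggtaggaTGACTCactgcgtaattc
ARG1, chrXV:218925-218954, plus strand: tgccgtatggaaGAGTCAtttaaaggcagg
HIS5, chrIX:142714-142743, plus strand: tcttggatctgtTGACTCacttcaattgat
HIS4, chrIII:68515-68544, minus strand: acccatgcacagTGACTCacgtttttttat

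ARG3, ornithine carbamoyltransferase, had the largest rise of the arginine list. ARG3 had a signal of 4428, 2565 and 5250.0 in the sam2Δ/sam2Δ libraries, against 1361, 623 and 518 in wildtype. Replicate 1 was the highest wildtype library, below all mutant ones, and the log2FC was 2.36 (SE 0.43, adjusted P = 0.214). ARG7, the ornithine acetyltransferase of mitochondria, followed. For ARG7, the sam2Δ/sam2Δ libraries held 16035, 8204 and 6620.5, against 2216, 4513 and 3525 in the wildtype libraries. Here the highest wildtype library was replicate 2 (log2FC 1.54, SE 0.41, adjusted P = 0.247). ARG56, which encodes 2 enzymes of ornithine synthesis, ARG1, the argininosuccinate synthetase, ORT1, the mitochondrial ornithine exporter, and ARG8, the acetylornithine aminotransferase, were called at 1.26, 1.25, 1.12 and 1.02. ARG1 lost its call without wildtype replicate 3 (1.13). CPA1, of carbamoyl phosphate synthesis, was at 0.65 and was not called with all 6 libraries, but was without wildtype replicate 1 (0.94). The synthase ARG2 (0.62, unadjusted P = 0.0522) and the argininosuccinate lyase ARG4 (0.98, unadjusted P = 0.0898) were not called either, although ARG2 was without wildtype replicate 2 (0.76) or sam2Δ/sam2Δ replicate 2 (0.78). ARG4 ranged from 15226 to 38789 in sam2Δ/sam2Δ and from 6721 to 17177 in wildtype, and the groups overlapped. With 1 library left out, 6 to 8 of the arginine synthesis genes were called. In the arginine and proline breakdown and regulators list, 1 of 8 tested members was downregulated and 0 upregulated, with a median log2FC of 0.07. It was CAR2, ornithine transaminase, which shares its locus with YLR437C-A. Signals of CAR2 were 400.5, 409 and 234 in sam2Δ/sam2Δ and 1618, 1166 and 845 in wildtype. Its log2FC was -1.79 and its call held in every leave-one-out fit.

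HIS5, the histidinol-phosphate aminotransferase, was at 4860 to 12581 in sam2Δ/sam2Δ, against 1797 to 3012 in wildtype (log2FC 1.59, SE 0.40, adjusted P = 0.233). HIS4, a trifunctional enzyme, had its highest value in sam2Δ/sam2Δ replicate 1. In sam2Δ/sam2Δ HIS4 was at 66848, 31000.5 and 22963, against 8172, 21409.7 and 14526 in wildtype. HIS4 was called at 1.41, HIS1, the first enzyme of the pathway, at 1.01 and HIS7, the imidazole glycerol phosphate synthase, at 0.92. HIS4 lost its call without wildtype replicate 1 or 3 (1.04 and 1.45) or sam2Δ/sam2Δ replicate 1 or 2 (0.97 and 1.52), and HIS7 without wildtype replicate 2 or 3 (0.74 and 0.71) or sam2Δ/sam2Δ replicate 1 or 3 (0.74 and 0.93). HIS2 and HIS6 were not called (0.49 and 0.28), although HIS2 was without sam2Δ/sam2Δ replicate 3 (0.69), and HIS3, deleted in both strains, was listed at 0 in all 6 libraries. The leave-one-out fits called 2 (omitting wildtype replicate 3 or sam2Δ/sam2Δ replicate 1) to 4 of the histidine synthesis genes.

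**Figure D3:**
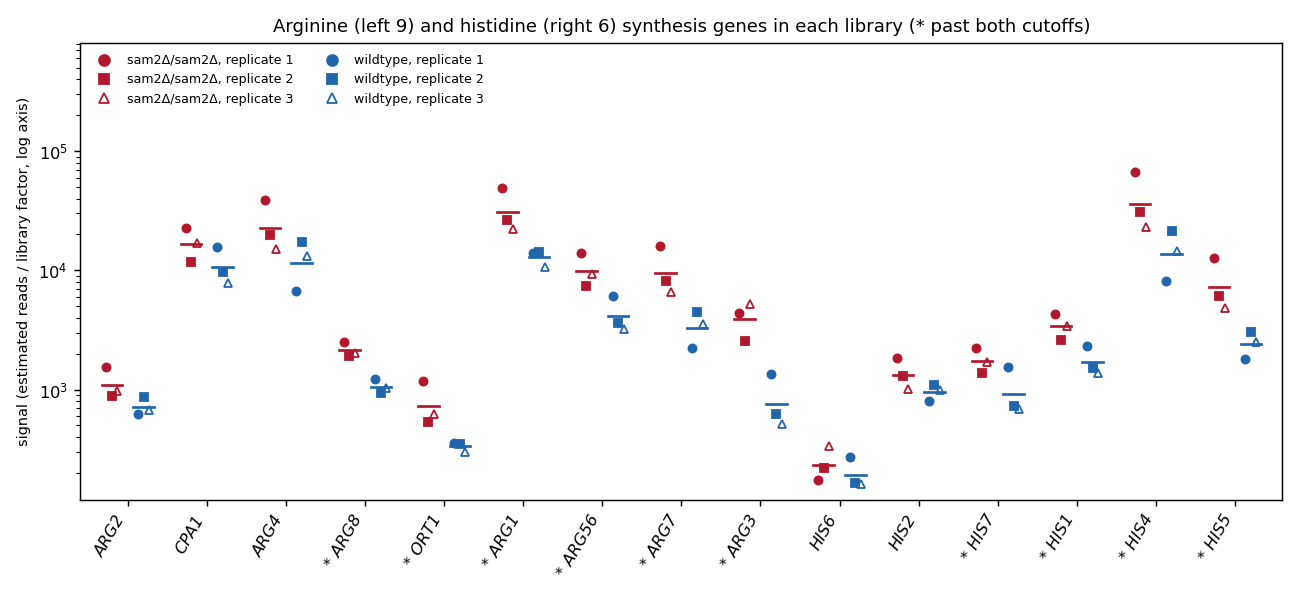
Signal of 9 arginine and 6 histidine synthesis genes in each library on a log axis, with sam2Δ/sam2Δ (red) left of wildtype (blue) and a bar at the geometric mean. The 10 genes with an asterisk were past both cutoffs, all with the red bar above the blue one, and sam2Δ/sam2Δ replicate 1 held the highest value of ARG1, ARG7, HIS4 and HIS5.

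Among the aromatic amino acid synthesis genes, 4 of 14 tested members were upregulated and 1 downregulated (median log2FC 0.39). Those higher were TRP2, anthranilate synthase (0.71), TRP3, its partner subunit (0.94), TRP4, anthranilate phosphoribosyltransferase (1.05), and ARO9, an aromatic aminotransferase (1.66). ARO9 had a signal of 1261, 366 and 652 in the sam2Δ/sam2Δ libraries, against 358, 153 and 172 in wildtype. The member that fell was TRP1, which these strains carry on the chromosome fragment and whose locus is shared with YDR008C. TRP2 lost its call without wildtype replicate 1 or 2 (0.58 and 0.71) or sam2Δ/sam2Δ replicate 1 or 2 (0.45 and 0.78), TRP3 without wildtype replicate 3 (0.88) or sam2Δ/sam2Δ replicate 1 (0.60), and TRP4 without wildtype replicate 1 or 3 (0.80 and 1.07) or sam2Δ/sam2Δ replicate 1 (0.71). In the lysine synthesis genes, 1 of 9 tested members was upregulated and 0 downregulated, with a median log2FC of 0.45. It was LYS14, the activator of the lysine genes (0.68). Among the homoserine, threonine, asparagine, serine and glycine genes, 1 of 15 tested members was upregulated and 0 downregulated (median log2FC 0.10). It was HOM3, aspartate kinase (1.26), at 2727 to 8234 in sam2Δ/sam2Δ and 1756 to 2710 in wildtype. LYS14 lost its call without wildtype replicate 1 or 3 (0.59 and 0.57) or sam2Δ/sam2Δ replicate 1 or 3 (0.51 and 0.67), and HOM3 without wildtype replicate 3 (1.17) or sam2Δ/sam2Δ replicate 1 or 3 (0.89 and 1.20). Called with 1 library left out were 2 (omitting sam2Δ/sam2Δ replicate 1) to 6 of the aromatic amino acid synthesis genes, 0 (omitting wildtype replicates 1 or 3 or sam2Δ/sam2Δ replicate 1) to 3 (omitting sam2Δ/sam2Δ replicate 3) of the lysine synthesis genes, and 0 (omitting wildtype replicate 3 or sam2Δ/sam2Δ replicates 1 or 3) to 2 (omitting wildtype replicate 2) of the homoserine, threonine, asparagine, serine and glycine genes.

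Genes under nitrogen catabolite repression, which are kept low while preferred nitrogen sources last, held some of the largest rises, and wildtype replicate 1 was high in several of them. In the nitrogen-repressed genes, 5 of 23 tested members were upregulated and 0 downregulated, with a median log2FC of 0.31. GAP1, the general amino acid permease, shows the pattern. For GAP1, the sam2Δ/sam2Δ libraries held 6228, 8624 and 19719.8, against 6274, 832 and 1080.5 in the wildtype libraries. Wildtype replicate 1 lay within the mutant range and the other wildtype libraries far below it, and the log2FC was 2.52 (SE 0.81, adjusted P = 0.282), or 3.43 without wildtype replicate 1. UGA4, the permease for 4-aminobutyrate, was at 2.13. Signals of UGA4 were 942, 758 and 3024 in sam2Δ/sam2Δ and 960.2, 155 and 171 in wildtype. DAL80, a GATA-factor repressor, was at 1.69, DAL3, ureidoglycolate lyase, at 1.41, and CPS1, a vacuolar carboxypeptidase, at 1.07. GAP1 lost its call without wildtype replicate 2 or 3 (1.97 and 2.16) or sam2Δ/sam2Δ replicate 3 (2.04), UGA4 without wildtype replicate 2 or 3 (1.67 and 1.74) or sam2Δ/sam2Δ replicate 1 or 3 (2.36 and 1.52), and DAL3 without wildtype replicate 2 or 3 (1.05 and 1.19) or sam2Δ/sam2Δ replicate 2 or 3 (1.48 and 1.12). MEP2, an ammonium permease, missed the cutoffs with all 6 libraries (1.93, unadjusted P = 0.0851). In sam2Δ/sam2Δ MEP2 was at 3146, 4011 and 12183, against 6305, 686 and 635 in wildtype. Without wildtype replicate 1 it was called (3.02), as were PUT1 and PUT4 of proline use (2.27 and 2.12, against 1.10 and 0.94 with all 6). Without wildtype replicate 1 and sam2Δ/sam2Δ replicate 3, 12 of the 23 members were called, 11 higher and 1 lower, against 687 of all 6099 genes. In that fit 21 genes in all passed an adjusted P of 0.05. These were the 7 named above and MEP2, UGA4, GAP1, PUT1, ZAP1, ARG3, PUT4, YML108W, CRG1, YHR033W, NCA3, DAL3, YGK1 and POT1, chosen by that fit after the values were seen. MEP2, UGA4 and GAP1 had log2FC of 2.43, 2.37 and 2.95 and adjusted P of 0.00453, 0.00502 and 0.00502 in it. Leaving out 1 library gave 2 (omitting wildtype replicates 2 or 3) to 10 (omitting wildtype replicate 1) of the nitrogen-repressed genes called.

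Within the permease genes for amino acids and peptides, 2 of 19 tested members were upregulated and 2 downregulated (median log2FC -0.01). The 2 lower members were BAP2 and TAT1. CAN1, the arginine permease, was higher. CAN1 had a signal of 4141, 2746 and 5124 in the sam2Δ/sam2Δ libraries, against 2575, 1594 and 1317 in wildtype. One of the 2 chromosomal copies of CAN1 is the can1-100 allele in both strains. Its log2FC was 1.14 (SE 0.34, adjusted P = 0.261). OPT2, an oligopeptide transporter, was called at 1.15 with overlapping groups. OPT2 lost its call without wildtype replicate 2 or 3 (1.16 and 0.90) or sam2Δ/sam2Δ replicate 1 or 3 (1.22 and 0.74). With 1 library left out, 3 to 7 (omitting wildtype replicate 1) of the permease genes for amino acids and peptides were called.

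The methyl cycle, in which AdoMet is used and remade, was read next. In the methyl cycle genes, 3 of 11 tested members were downregulated and 0 upregulated, with a median log2FC of -0.60. These 3 include SAM2, the deleted gene, whose fall was fixed by the genotype and which also enters the median. SAH1, S-adenosylhomocysteine hydrolase, was called beside SAM1 and SAM2. For SAH1, the sam2Δ/sam2Δ libraries held 7853, 15323 and 10158, against 36738, 14676 and 20442 in the wildtype libraries. Wildtype replicate 1 held the highest value, and the groups overlapped through sam2Δ/sam2Δ replicate 2 (log2FC -1.06, SE 0.43, adjusted P = 0.371). MET6, methionine synthase, and ADO1, adenosine kinase, were at -0.79 and -0.60 and were not called. SAH1 lost its call without wildtype replicate 1 or 3 (-0.70 and -1.12) or sam2Δ/sam2Δ replicate 1 or 3 (-0.83 and -1.02). The leave-one-out fits called 1 (omitting sam2Δ/sam2Δ replicate 3) to 3 of the methyl cycle genes. SAM2 was called in all of these fits, and was the only one called without sam2Δ/sam2Δ replicate 3.

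Among the sulfate assimilation and regulator genes, 1 of 24 tested members was upregulated and 4 downregulated (median log2FC -0.29). CYS3 and CYS4 encode the 2 enzymes that turn homocysteine into cysteine. Signals of CYS3 were 992, 1938 and 1399.6 in sam2Δ/sam2Δ and 3524, 3979 and 2860.3 in wildtype. The groups of CYS3 did not overlap (log2FC -1.30, SE 0.28, adjusted P = 0.222). CYS4 was at 4273 to 6653 in sam2Δ/sam2Δ, against 8771 to 16072 in wildtype (log2FC -0.97, SE 0.32, adjusted P = 0.29). The methionine permease MUP1 (-0.73) and the sulfate permease SUL2 (-0.69) were lower too, and STR2, cystathionine gamma-synthase of the opposite route, was higher. In sam2Δ/sam2Δ STR2 was at 5801, 2968 and 2246, against 1104, 2112 and 1500.1 in wildtype. Its log2FC was 1.16. CYS4 lost its call without sam2Δ/sam2Δ replicate 1 (-0.76), MUP1 without wildtype replicate 2 (-0.53) or sam2Δ/sam2Δ replicate 1 or 3 (-0.54 and -0.69), SUL2 without wildtype replicate 2 (-0.40) or sam2Δ/sam2Δ replicate 1, 2 or 3 (-0.64, -0.78 and -0.64), and STR2 without wildtype replicate 1 or 3 (0.93 and 1.15) or sam2Δ/sam2Δ replicate 1 (0.77). CACGTG, the motif of Cbf1 and Met4 and the same on both strands, stood in the windows of 19 of the 24 genes of this list and of 355 of 5645 genes (6.29%). Among the DEGs it was present at 25 of 259 downregulated and 12 of 278 upregulated ones (9.65% and 4.32%). The windows of 13 of 17 phosphate genes held it too, and none of the phosphate genes was called. The motif is shown for SAM2 and 2 of the cysteine genes that fell.
SAM2, chrIV:1454770-1454799, minus strand: aatatttctaccCACGTGactataattgag
CYS3, chrI:130571-130600, plus strand: taattagccattCACGTGatctcagccagt
CYS4, chrVII:798126-798155, plus strand: aaatggtaatggCACGTGatagtagtggct
Without wildtype replicate 1 and sam2Δ/sam2Δ replicate 3, 13 of the 24 genes were called, 2 higher and 11 lower, and the median was -0.57. That fit called 687 of all 6099 genes. Called with 1 library left out were 1 (omitting sam2Δ/sam2Δ replicate 1) to 7 of the sulfate assimilation and regulator genes.

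In the methyltransferase genes, 2 of 68 tested members were upregulated and 2 downregulated, with a median log2FC of -0.19. CRG1, a small-molecule methyltransferase, rose most. CRG1 had a signal of 2175, 2132 and 1854 in the sam2Δ/sam2Δ libraries, against 637, 895 and 959 in wildtype. The groups were well apart and the call held in all 6 leave-one-out fits. RKM4, a ribosomal lysine methyltransferase, was called at 0.82, TAE1, the N-terminal methyltransferase of ribosomal proteins, at -1.05 and DPH5, an enzyme of diphthamide synthesis, at -0.74. RKM4 lost its call without wildtype replicate 2 or 3 (0.77 and 0.66) or sam2Δ/sam2Δ replicate 1 or 3 (0.75 and 0.72), TAE1 without sam2Δ/sam2Δ replicate 1 (-0.96), and DPH5 without wildtype replicate 1 or 3 (-0.65 and -0.70) or sam2Δ/sam2Δ replicate 1 or 3 (-0.55 and -0.66). TAE1 was at -0.66 without wildtype replicate 1. The median of the list ran between -0.38 (omitting wildtype replicate 2) and 0.03 (omitting wildtype replicate 1). Leaving out 1 library gave 1 (omitting sam2Δ/sam2Δ replicate 1) to 6 of the methyltransferase genes, and 1 to 3 (omitting wildtype replicate 2) of the polyamine and methylthioadenosine salvage genes called. Among the polyamine and methylthioadenosine salvage genes, 1 of 14 tested members was downregulated and 0 upregulated (median log2FC -0.26). It was MDE1, a dehydratase of methionine salvage (-0.79).

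ISU2, a scaffold on which iron-sulfur clusters are built in mitochondria, was among the 7 genes past adjustment. For ISU2, the sam2Δ/sam2Δ libraries held 138, 137 and 193, against 1129.9, 823 and 757 in the wildtype libraries. The groups lay far apart (log2FC -2.52, SE 0.23, adjusted P = 0.0251). YOR225W, a reading frame listed at the same locus (chromosome XV, 761392 to 762084), had -2.25, and the table splits one set of reads between the 2. In the iron-sulfur cluster assembly genes, 2 of 21 tested members were upregulated and 2 downregulated, with a median log2FC of 0.06. ATM1, the mitochondrial exporter of the pathway, was lower (-0.62), and ISD11, a partner of the cysteine desulfurase, and CIA2, of the cytosolic machinery, were higher (0.64 and 0.83). DRE2, downregulated and named above for its Leu3 motif, was not a member of this list. ATM1 lost its call without wildtype replicate 1 or 2 (-0.51 and -0.65) or sam2Δ/sam2Δ replicate 1 (-0.44), ISD11 without sam2Δ/sam2Δ replicate 3 (0.56), and CIA2 without wildtype replicate 3 (0.72) or sam2Δ/sam2Δ replicate 1 (0.62). Among the iron regulon genes, 2 of 26 tested members were downregulated and 0 upregulated (median log2FC -0.16). These were TIS11, an mRNA-binding protein of iron scarcity (-0.84), and FIT3, a cell wall mannoprotein (-0.59), both with overlapping groups. TIS11 lost its call without wildtype replicate 1 or 2 (-0.83 and -0.59) or sam2Δ/sam2Δ replicate 1 or 3 (-0.78 and -0.62), and FIT3 without wildtype replicate 1 or 2 (-0.39 and -0.61) or sam2Δ/sam2Δ replicate 1 or 2 (-0.55 and -0.48). With 1 library left out, 2 (omitting sam2Δ/sam2Δ replicate 1) to 4 of the iron-sulfur cluster assembly genes, and 0 (omitting wildtype replicate 2 or sam2Δ/sam2Δ replicate 1) to 3 of the iron regulon genes were called.

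OYE3, an NADPH oxidoreductase of the old yellow enzyme family, was the last of the 7. Signals of OYE3 were 481, 392 and 462 in sam2Δ/sam2Δ and 1599, 2284 and 1825 in wildtype. The log2FC was -2.08 (SE 0.20, adjusted P = 0.0251). TTACTAA, a motif of Yap1, occurs 2 times in its window, as shown, and in 681 of 5645 windows (12.1%), 26 of 259 downregulated DEGs (10.04%) among them.
OYE3, chrXVI:227501-227530, minus strand: cgcaataaccaTTACTAAgcacagtgttgt
OYE3, chrXVI:227565-227594, minus strand: agaagggctccTTAGTAAgcagtttgcgtt
In the peroxide defence and redox genes, 5 of 21 tested members were downregulated and 0 upregulated, with a median log2FC of -0.29. The other 4 were the superoxide dismutase SOD2 (-0.78), the reductase GRE2 (-0.72), glucose-6-phosphate dehydrogenase ZWF1 (-0.71) and thioredoxin reductase TRR1 (-0.61). Of these, GRE2 shares its locus with YOL150C. SOD2 lost its call without wildtype replicate 1 or 3 (-0.53 and -0.84) or sam2Δ/sam2Δ replicate 1, 2 or 3 (-0.82, -0.74 and -0.77), GRE2 without wildtype replicate 3 (-0.59), ZWF1 without wildtype replicate 2 or 3 (-0.61 and -0.66) or sam2Δ/sam2Δ replicate 2 or 3 (-0.75 and -0.51), and TRR1 without wildtype replicate 1 or 3 (-0.48 and -0.65) or sam2Δ/sam2Δ replicate 1 or 3 (-0.65 and -0.48). Among the copper genes, 4 of 9 tested members were downregulated and 0 upregulated (median log2FC -0.23). SOD1, copper-zinc superoxide dismutase, was at 13510 to 19663 in sam2Δ/sam2Δ, against 29105 to 32112 in wildtype (log2FC -0.85, SE 0.29, adjusted P = 0.302). The copper chaperone CCS1 (-0.94), the copper-sensing activator CUP2 (-0.94) and the copper transporter CTR1 (-0.93) were lower as well, and CUP2 and CTR1 share their loci with other frames. SOD1 lost its call without wildtype replicate 2 or 3 (-0.85 and -0.88) or sam2Δ/sam2Δ replicate 3 (-0.68), CCS1 without sam2Δ/sam2Δ replicate 1 or 3 (-0.80 and -0.97), and CUP2 without wildtype replicate 1 or 2 (-0.54 and -1.02) or sam2Δ/sam2Δ replicate 1, 2 or 3 (-0.92, -0.98 and -0.92). CCS1 was at -0.59 without wildtype replicate 1. In the glutathione, glutaredoxin and transferase genes, 1 of 15 tested members was upregulated and 1 downregulated, with a median log2FC of -0.08. That is 13.3% called, near the 9.85% of all genes. GSH1, which makes the glutathione precursor, fell, and GRX4, a monothiol glutaredoxin, rose. In sam2Δ/sam2Δ GSH1 was at 1124, 1344 and 1199, against 2654, 2464 and 2144 in wildtype. GRX4 had a signal of 1627, 699 and 635 in the sam2Δ/sam2Δ libraries, against 278, 453 and 443 in wildtype. Neither pair of groups overlapped (log2FC -0.98 and 1.23), and GRX4 was at 0.80 without sam2Δ/sam2Δ replicate 1. The leave-one-out fits called 1 (omitting wildtype replicate 3) to 4 of the peroxide defence and redox genes, and 1 (omitting sam2Δ/sam2Δ replicate 3) to 3 of the copper genes.

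Among the pyrimidine synthesis and salvage genes, 1 of 20 tested members was upregulated and 3 downregulated (median log2FC -0.34). The lower ones were URA3, a marker of these strains (-0.998), DUT1, dUTPase (-0.84), and URA6, uridylate kinase (-0.65). SDT1, a pyrimidine nucleotidase, was higher. For SDT1, the sam2Δ/sam2Δ libraries held 1700.2, 1276 and 743, against 329, 639 and 513 in the wildtype libraries. Its log2FC was 1.30. URA6 lost its call without wildtype replicate 1 or 3 (-0.49 and -0.69) or sam2Δ/sam2Δ replicate 1 or 3 (-0.51 and -0.63). In the purine synthesis genes, 1 of 16 tested members was upregulated and 1 downregulated, with a median log2FC of 0.04. ADE8, the glycinamide ribotide transformylase, was lower (-0.68) and ADE12, adenylosuccinate synthase, higher (0.60). ADE8 lost its call without wildtype replicate 1 or 2 (-0.45 and -0.73) or sam2Δ/sam2Δ replicate 1, 2 or 3 (-0.75, -0.73 and -0.56), and ADE12 without wildtype replicate 2 or 3 (0.67 and 0.45) or sam2Δ/sam2Δ replicate 1 or 2 (0.44 and 0.65). Among the ribonucleotide reductase genes, 1 of 8 tested members was downregulated and 0 upregulated (median log2FC -0.29). It was DIF1, which places the small subunit in the nucleus (-0.66). In the DNA repair genes, 2 of 30 tested members were upregulated and 2 downregulated, with a median log2FC of 0.08. RAD23, a damage recognition protein, was among the lower ones (-0.60), and RAD50, of the double-strand break complex, and RAD28 were higher (0.74 and 0.60). Of the purine synthesis, ribonucleotide reductase and DNA repair genes 12.5%, 12.5% and 13.3% were called, near the 9.85% of all genes. DIF1 lost its call without wildtype replicate 1 or 2 (-0.43 and -0.71) or sam2Δ/sam2Δ replicate 1, 2 or 3 (-0.68, -0.69 and -0.62), RAD23 without wildtype replicate 1 (-0.40) or sam2Δ/sam2Δ replicate 1 or 2 (-0.49 and -0.63), RAD50 without wildtype replicate 3 (0.62) or sam2Δ/sam2Δ replicate 3 (0.55), and RAD28 without wildtype replicate 3 (0.58) or sam2Δ/sam2Δ replicate 1 or 3 (0.58 and 0.48). Called with 1 library left out were 0 (omitting sam2Δ/sam2Δ replicate 1) to 6 (omitting wildtype replicate 1) of the purine synthesis genes, 3 to 7 (omitting wildtype replicate 1) of the pyrimidine synthesis and salvage genes, and 1 (omitting sam2Δ/sam2Δ replicate 1) to 6 of the DNA repair genes.

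Among the hexose transport and sensing genes, 3 of 18 tested members were downregulated and 0 upregulated (median log2FC -0.29). HXT3, a low-affinity glucose transporter, was at 6133 to 11416 in sam2Δ/sam2Δ, against 18924 to 27315 in wildtype (log2FC -1.44, SE 0.33, adjusted P = 0.224). HXT2, a high-affinity one, and MIG2, a glucose-dependent repressor, were at -1.13 and -1.27, and these 3 calls held in each leave-one-out fit. In the glycolysis and fermentation genes, 2 of 23 tested members were downregulated and 0 upregulated, with a median log2FC of -0.45. They were PFK1 and PFK2, the 2 subunits of phosphofructokinase (-0.69 and -0.77). PFK1 lost its call without wildtype replicate 2 (-0.64) or sam2Δ/sam2Δ replicate 1 or 3 (-0.65 and -0.62). Leaving out 1 library gave 3 to 5 (omitting wildtype replicate 1) of the hexose transport and sensing genes, and 1 (omitting wildtype replicate 2 or sam2Δ/sam2Δ replicates 1 or 3) to 6 (omitting wildtype replicate 1) of the glycolysis and fermentation genes called. Among the respiratory chain and ATP synthase genes, 1 of 35 tested members was upregulated and 0 downregulated (median log2FC 0.00). It was ATP20, of the ATP synthase dimer interface, at 1651 to 2611 in sam2Δ/sam2Δ and 735 to 1007 in wildtype (log2FC 1.34, SE 0.23, adjusted P = 0.214).

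Ribosomal genes were mostly below 0 without being called. In the large-subunit ribosomal protein genes, 1 of 80 tested members was downregulated and 0 upregulated, with a median log2FC of -0.33. Among the small-subunit ribosomal protein genes, 1 of 56 tested members was downregulated and 0 upregulated (median log2FC -0.36). RPL28 (-0.69) and RPS28A (-0.58) were the ones called, both with overlapping groups. The locus of RPL28 is shared with YGL102C, so reads were divided between them. RPL28 lost its call without wildtype replicate 1 or 3 (-0.48 and -0.74) or sam2Δ/sam2Δ replicate 2 or 3 (-0.58 and -0.58), and RPS28A without wildtype replicate 1 or 3 (-0.52 and -0.52) or sam2Δ/sam2Δ replicate 1 or 3 (-0.46 and -0.51). A log2FC above 0 was found in 4 of 80 large-subunit and 3 of 56 small-subunit genes. In the small-subunit assembly genes, 0 of 61 tested members were called, with a median log2FC of -0.28. Among the large-subunit assembly genes, 0 of 65 tested members were called (median log2FC -0.33). In the general stress genes, 0 of 36 tested members were called, with a median log2FC of 0.31. Among the heat shock chaperone genes, 1 of 22 tested members was upregulated and 0 downregulated (median log2FC 0.24). The one called was CUR1, a sorting factor for misfolded proteins (0.86). CUR1 lost its call without wildtype replicate 1 (0.47) or sam2Δ/sam2Δ replicate 1, 2 or 3 (0.79, 0.90 and 0.88). The medians of the assembly, stress and chaperone genes changed sign without wildtype replicate 1, and those of both assembly lists also without sam2Δ/sam2Δ replicate 1. Without wildtype replicate 1 the medians of the small-subunit and large-subunit assembly genes were 0.30 and 0.30, and those of general stress genes and chaperones -0.44 and -0.29. Those of the large-subunit and small-subunit ribosomal proteins were -0.12 and -0.14 without wildtype replicate 1. With 1 library left out, 0 (omitting wildtype replicate 3 or sam2Δ/sam2Δ replicate 3) to 9 (omitting wildtype replicate 2) of the large-subunit ribosomal protein genes, and 0 (omitting wildtype replicates 1 or 3 or sam2Δ/sam2Δ replicates 1 or 3) to 7 (omitting wildtype replicate 2) of the small-subunit ribosomal protein genes were called. Of all 49 lists, scaling to library totals turned the sign of 7 medians, none of them larger than 0.11 in size.

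**Figure D4:**
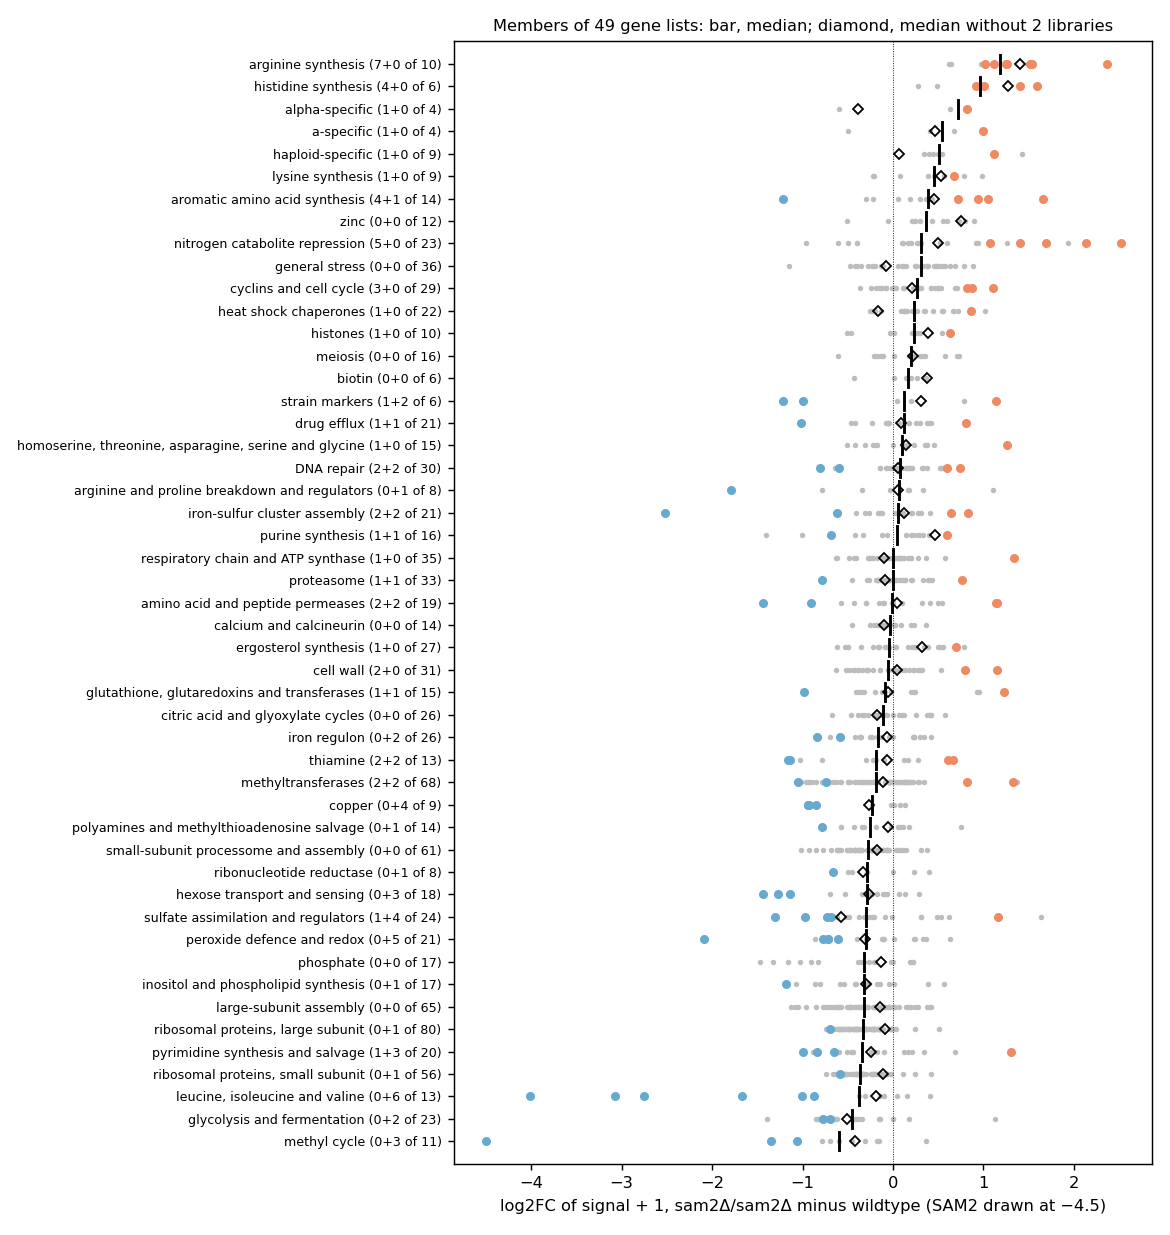
Each line is 1 of 49 gene lists, ordered by median log2FC (black bar), with each tested member as a point (orange, called higher; blue, called lower; grey, not called) on an x axis of log2FC of signal plus 1, sam2Δ/sam2Δ minus wildtype. Diamonds are medians without wildtype replicate 1 and sam2Δ/sam2Δ replicate 3, and numbers in brackets give members higher plus lower of those tested, from 7+0 of 10 for arginine synthesis to 0+6 of 13 for leucine, isoleucine and valine.

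Genes that MATa/α diploids keep silent were read as a check of the strains, and 1 library differed from the others. MF(ALPHA)1, the alpha-factor precursor, which only alpha cells express, was high in sam2Δ/sam2Δ replicate 3. Signals of MF(ALPHA)1 were 18.2, 30.5 and 1473 in sam2Δ/sam2Δ and 56.6, 52.1 and 54.9 in wildtype. Its log2FC was 0.79 with all libraries and -1.17 without that one, and it was called in that second fit but not with all 6 libraries. STE3, the a-factor receptor of alpha cells, gave 282 in that library, 45.7 and 55.8 in the other sam2Δ/sam2Δ libraries and 48.2 to 65.5 in wildtype. The pheromone pathway genes of haploids had their highest value there too. GPA1 was at 386 in sam2Δ/sam2Δ replicate 3 and 110.3 to 151 in the 5 other libraries, STE4 at 372 and 162 to 203, STE5 at 382 and 91.5 to 120.3, and FUS3 at 262 and 59.5 to 84.6. STE18, below the filter, was at 149 there and 2.60 to 14.5 elsewhere, at a locus it shares with EMC2. A larger share of cells with these transcripts and more transcript per cell cannot be told apart in such libraries.

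In the haploid-specific genes, 1 of 9 tested members was upregulated and 0 downregulated, with a median log2FC of 0.51. FAR1, a cyclin-dependent kinase inhibitor of the mating response, was the member called. In sam2Δ/sam2Δ FAR1 was at 467, 436 and 305, against 102, 230.3 and 259 in wildtype. In FAR1 the third mutant library was the lowest of its group (log2FC 1.11, SE 0.38, adjusted P = 0.302). FAR1 lost its call without sam2Δ/sam2Δ replicate 1 or 2 (0.99 and 1.04). It was at 0.69 without wildtype replicate 1. AXL1, RME1, HO and NEJ1 were not called (0.34, 0.44, 0.55 and 1.43), although NEJ1 was without wildtype replicate 1 (1.85). Among the a-specific genes, 1 of 4 tested members was upregulated and 0 downregulated (median log2FC 0.54). ASG7 was called at 0.997, on signals of 50.5 to 91.5 in sam2Δ/sam2Δ and 31.2 to 41.2 in wildtype, and STE2, STE6 and BAR1 were not (0.40, 0.67 and -0.50), although STE6 was without wildtype replicate 2 (0.84) and BAR1 without sam2Δ/sam2Δ replicate 1 (-0.66). MFA1, MFA2 and AGA2 lay below the filter, at 0 to 13.02 in sam2Δ/sam2Δ and 1.21 to 14.96 in wildtype. In the alpha-specific genes, 1 of 4 tested members was upregulated and 0 downregulated, with a median log2FC of 0.71. SAG1, alpha-agglutinin, was called at 0.82, on 375 to 518 in sam2Δ/sam2Δ and 235 to 266 in wildtype, and MF(ALPHA)2 was not (-0.60), but was without sam2Δ/sam2Δ replicate 3 (-0.83). Without wildtype replicate 1 and sam2Δ/sam2Δ replicate 3, the medians of the 3 mating lists, in this order, were 0.07, 0.46 and -0.38, against 0.51, 0.54 and 0.71 with all 6 libraries. The leave-one-out fits called 0 (omitting sam2Δ/sam2Δ replicates 1 or 2) to 2 (omitting wildtype replicate 1) of the haploid-specific genes, 1 to 2 (omitting wildtype replicate 2 or sam2Δ/sam2Δ replicate 1) of the a-specific genes, and 1 to 3 (omitting sam2Δ/sam2Δ replicate 3) of the alpha-specific genes.

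**Figure D5:**
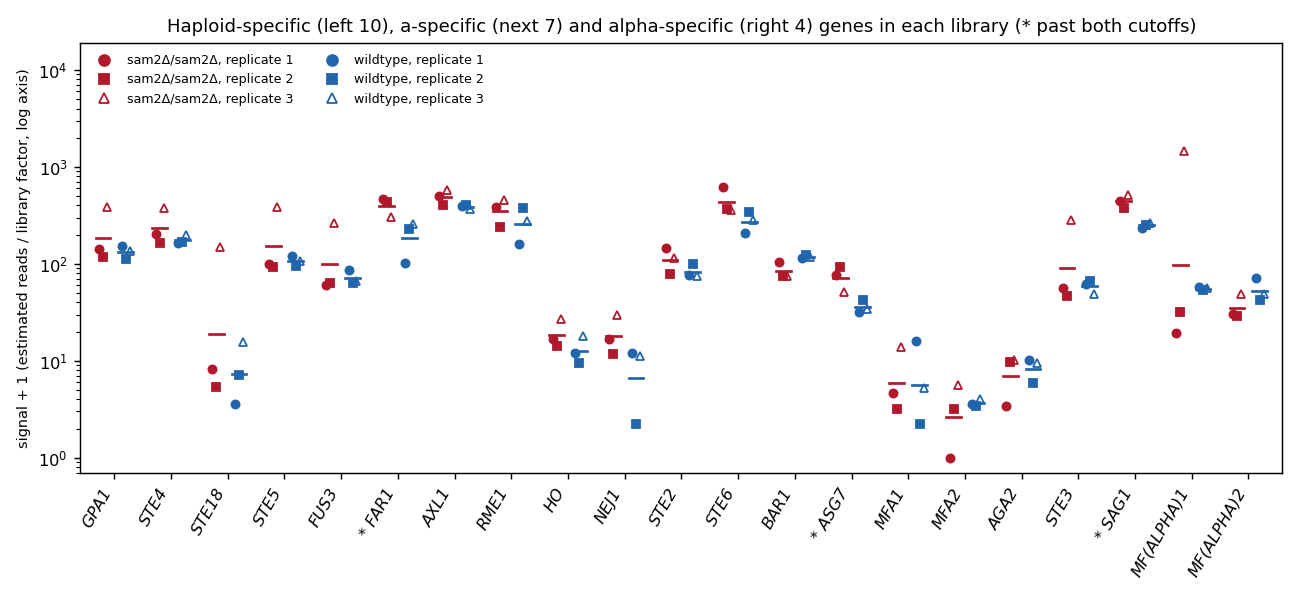
Signal plus 1 of 10 genes specific to haploids, 7 to a cells and 4 to alpha cells in each library on a log axis, with sam2Δ/sam2Δ (red) left of wildtype (blue) and a bar at the geometric mean. The open red triangle, sam2Δ/sam2Δ replicate 3, stands above all other points for GPA1, STE4, STE18, STE5, FUS3, STE3 and MF(ALPHA)1, and asterisks mark FAR1, ASG7 and SAG1.

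The strain markers were compared in the same way. Among the strain marker genes, 1 of 6 tested members was upregulated and 2 downregulated (median log2FC 0.12). The higher one was CAN1, given above. TRP1 and URA3 were lower, although neither strain differs from the other in the stated genotype at them. TRP1 had a signal of 1718, 1339 and 1266 in the sam2Δ/sam2Δ libraries, against 2529, 4236 and 3376 in wildtype. For URA3, the sam2Δ/sam2Δ libraries held 6772, 6749 and 5923, against 10607, 14648 and 13896 in the wildtype libraries. Both kept their calls in each leave-one-out fit (log2FC -1.21, SE 0.25, adjusted P = 0.222, and log2FC -0.998, SE 0.24, adjusted P = 0.224 for URA3). LYS2 and ADE2 were not called. LYS2 was at 2665 to 5865 in sam2Δ/sam2Δ and 1892 to 2958 in wildtype (log2FC 0.79, unadjusted P = 0.0537) and was called without sam2Δ/sam2Δ replicate 3 (1.11), and ADE2 was at 2295 to 3360 in sam2Δ/sam2Δ and 1487 to 5300 in wildtype (0.20, with the sign turned without wildtype replicate 2 or 3, at -0.02 and -0.15, and past both cutoffs without wildtype replicate 1, at 0.76).

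Changes were also read by position on the chromosomes, as a description. Median log2FC per chromosome ranged from -0.17 on chromosome I, where 13 of 98 genes were called, 11 of them lower, to 0.05 on chromosome II. The share called was highest on chromosome III, with 26 of 165 genes (15.8%), and lowest on chromosome IV, which carries SAM2, with 62 of 790 (7.85%). Over 5791 windows of 20 neighbouring genes the lowest median was -0.48, on the right arm of chromosome III between 208135 and 238776, where 4 genes were called lower, and it was -0.17 without wildtype replicate 1. The highest was 0.40, on chromosome IV between 473157 and 509109, with 4 genes called higher, and 0.24 without wildtype replicate 1.

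Outside these lists, the largest rises among DEGs with a mean of at least 50 and groups that do not overlap included genes of unlike roles. YOL118C, an uncharacterized frame, was at 37.0 to 193 in sam2Δ/sam2Δ and 9.11 to 19.4 in wildtype (log2FC 2.61). ARO5, the name given to YGL117W, followed the amino acid genes in having its highest value in sam2Δ/sam2Δ replicate 1. Signals of ARO5 were 9777, 3304 and 4183 in sam2Δ/sam2Δ and 545, 2035 and 1305 in wildtype. RTC2, a vacuolar membrane transporter of basic amino acids, was also highest there. In sam2Δ/sam2Δ RTC2 was at 12107, 4129 and 3402, against 659.6, 3036 and 1847 in wildtype. Their log2FC were 2.18 and 1.84, and both hold TGACTC in their windows. THI73, a membrane transporter of the carboxylate family, was at 2.17, DSE1, a daughter cell protein that helps cells separate, at 1.81, LSM2, of the mRNA decay and splicing rings, at 1.66, COG1, of the Golgi tethering complex, at 1.64, and the mitochondrial proteins MRX7 and MCO6 at 1.61 and 1.57. MCO6 had the lowest P of any upregulated gene. MCO6 had a signal of 501, 357 and 361 in the sam2Δ/sam2Δ libraries, against 123, 158 and 127 in wildtype. YLR339C and YER137W-A, at 1.83 and 1.78, share loci with RPP0 and YER137C. RTC2 lost its call without wildtype replicate 1 (1.23) or sam2Δ/sam2Δ replicate 1 (1.28), and YER137W-A without wildtype replicate 3 (1.55) or sam2Δ/sam2Δ replicate 3 (1.48). The largest falls not yet given were YDR094W, which lies within DNF2 (-2.18), YHR033W (-1.75), COQ21 (-1.72), the kinetochore subunit SPC25 (-1.69) and YHL050W-A, a telomere-proximal frame within YHL050C (-1.68). For YHR033W, the sam2Δ/sam2Δ libraries held 286, 346 and 191, against 812, 1064 and 843 in the wildtype libraries. SPC25 lost its call without sam2Δ/sam2Δ replicate 3 (-1.13).

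Smaller groups held few calls each. Of the cyclin, histone and drug efflux genes 10.3%, 10% and 9.5% were called, near the 9.85% of all genes. In the cyclin and cell cycle genes, 3 of 29 tested members were upregulated and 0 downregulated, with a median log2FC of 0.27. They were the mitotic cyclin CLB2 (1.10), the mitotic kinase CDC5 (0.82) and the activator SWI5 (0.88). Signals of CLB2 were 219.7, 166 and 202 in sam2Δ/sam2Δ and 82.0, 88.5 and 100.1 in wildtype. CLB2 kept its call in each leave-one-out fit. CDC5 lost its call without wildtype replicate 1 (0.50) or sam2Δ/sam2Δ replicate 1, 2 or 3 (0.76, 0.87 and 0.84), and SWI5 without sam2Δ/sam2Δ replicate 1 (0.78). Among the histone genes, 1 of 10 tested members was upregulated and 0 downregulated (median log2FC 0.24). It was HTB1, a histone H2B (0.63). In the cell wall genes, 2 of 31 tested members were upregulated and 0 downregulated, with a median log2FC of -0.06. They were CWP1, a mannoprotein (1.15), and PRM5 (0.79). Among the drug efflux genes, 1 of 21 tested members was upregulated and 1 downregulated (median log2FC 0.12). QDR3 was higher (0.80) and QDR2 lower (-1.01), and both kept their calls in each leave-one-out fit. In the proteasome genes, 1 of 33 tested members was upregulated and 1 downregulated, with a median log2FC of -0.0013. RPN12 was higher (0.77) and RPN10 lower (-0.79). Among the thiamine genes, 2 of 13 tested members were upregulated and 2 downregulated (median log2FC -0.18). THI20 and the activator THI2 were higher (0.67 and 0.60) and the near-identical precursor genes THI12 and THI13, between which reads can be split, lower (-1.16 and -1.14). In the inositol and phospholipid synthesis genes, 1 of 17 tested members was downregulated and 0 upregulated, with a median log2FC of -0.32. It was INO2, the activator of the inositol genes (-1.19). Among the ergosterol synthesis genes, 1 of 27 tested members was upregulated and 0 downregulated (median log2FC -0.04). It was ERG28, a scaffold of the pathway (0.69). HTB1 lost its call without wildtype replicate 1, 2 or 3 (0.50, 0.63 and 0.74) or sam2Δ/sam2Δ replicate 1 or 2 (0.54 and 0.52), CWP1 without wildtype replicate 2 or 3 (1.06 and 0.99) or sam2Δ/sam2Δ replicate 3 (0.75), PRM5 without wildtype replicate 1 (0.49) or sam2Δ/sam2Δ replicate 1, 2 or 3 (0.56, 0.92 and 0.89), and RPN12 without wildtype replicate 1 (0.54) or sam2Δ/sam2Δ replicate 1 (0.69). THI2 lost its call without wildtype replicate 1 or 3 (0.56 and 0.61) or sam2Δ/sam2Δ replicate 1 or 3 (0.59 and 0.49), THI12 without wildtype replicate 1 or 3 (-0.78 and -1.19) or sam2Δ/sam2Δ replicate 2 or 3 (-0.90 and -1.15), INO2 without sam2Δ/sam2Δ replicate 1 or 2 (-1.09 and -1.20), and ERG28 without wildtype replicate 2 or 3 (0.42 and 0.77) or sam2Δ/sam2Δ replicate 1, 2 or 3 (0.77, 0.66 and 0.65). INO2 was at -0.70 without wildtype replicate 1. Called with 1 library left out were 0 (omitting wildtype replicates 2 or 3 or sam2Δ/sam2Δ replicates 2 or 3) to 4 (omitting wildtype replicate 1) of the ergosterol synthesis genes, 0 (omitting sam2Δ/sam2Δ replicate 1) to 3 (omitting sam2Δ/sam2Δ replicate 2) of the inositol and phospholipid synthesis genes, 2 (omitting wildtype replicates 1 or 3 or sam2Δ/sam2Δ replicate 3) to 5 of the thiamine genes, 0 (omitting wildtype replicates 1, 2 or 3 or sam2Δ/sam2Δ replicate 1) to 2 (omitting sam2Δ/sam2Δ replicates 2 or 3) of the histone genes, and 0 (omitting sam2Δ/sam2Δ replicate 3) to 2 of the cell wall genes. The ergosterol genes had a median of 0.51 (omitting wildtype replicate 1) to -0.56 (omitting wildtype replicate 2), and with 1 library left out the medians of the purine synthesis, histone, cell wall and proteasome genes also ran across 0, at -0.21 to 0.50, -0.084 to 0.61, -0.29 to 0.042 and -0.20 to 0.12.

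Of the 49 lists 9 had no member called, namely meiosis, zinc, phosphate, biotin, small-subunit assembly, large-subunit assembly, general stress, the citric acid and glyoxylate cycles, and calcium and calcineurin. Of their 253 tested members 3 had an unadjusted P of at most 0.05 in limma, as did 810 of all 6099 genes. By limma-voom on recovered reads 0 of the 253 were called. These lists were set apart by having no call, so the 3 and the 0 follow largely from that choice and are no separate evidence. Their medians ranged from -0.33 for large-subunit assembly to 0.36 for zinc. The genes of the zinc list answer to the activator Zap1. Without wildtype replicate 1 and sam2Δ/sam2Δ replicate 3, 7 of its 12 members were called higher and 0 lower, against 687 of all 6099 genes. Without wildtype replicate 1 alone 3 were called, against 755 of all genes. ZAP1 itself was at 2039, 1836 and 1106 in sam2Δ/sam2Δ, against 1646, 732 and 752 in wildtype, and its log2FC of 0.73 became 1.38 without the 2 libraries. ZAP1 was also called without wildtype replicate 1 (1.11) or sam2Δ/sam2Δ replicate 3 (1.00) alone.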

How the data were processed

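The deposited table gives, for 7126 genic regions and 9 libraries, a signal that the authors made by aligning single-end reads of poly-A RNA to the R64-1-1 yeast genome with TopHat2 (2.0.13) and dividing estimated fragments by a library factor with Cuffnorm (2.2.1), per their processing notes. Reads of overlapping regions are divided by that program, so such genes are uncertain. Depth is 4.90 to 18.2 M recovered reads per library and limits low genes most. Regions with a signal of at least 10 in 3 of 6 libraries were tested with limma 3.58.1 (R 4.3.3, mean-variance trend, two-sided, Benjamini-Hochberg adjustment) on log2 of signal plus 1, and lists and windows are described with no test. The script was tested on simulated data. Names of 6079 regions came from RefSeq (R64), and gene coordinates are the loci of the deposited table. The windows of 500 bases were read from the RefSeq genome.

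Named were SAM1, SAM2 and the 2 nearest genes on each side of SAM2, genes that passed an adjusted P of 0.05, the 15 largest rises and 15 largest falls among DEGs with non-overlapping groups and a mean of at least 50, members of the leucine, arginine, mating and marker lists, and up to 8 DEGs of each other list. Motif holders, MEP2, ZAP1, SAM2 pathway genes that were not called and other unlisted genes were chosen after their values were seen. The comparison, lists and motifs were chosen with earlier results of these data known. The alternatives were 4 scalings, other pseudocounts and filters, limma-voom, all 9 libraries, a replicate block and leaving out libraries. Some genes that this rule names are not reported here.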

Additional observations from a re-analysis of the deposited data

How the results depend on the processing

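The number of DEGs was 601 as reported and stayed between 555 and 725 under the other scalings, pseudocounts and filters, limma-voom and a fit of all 9 libraries. Adjusted P in place of unadjusted P, at the same log2FC, left 7. With 1 library left out the number ran between 417, when sam2Δ/sam2Δ replicate 1 was omitted, and 755, when wildtype replicate 1 was, with 188 to 379 upregulated. Scaling to library totals shifted the median log2FC of all genes to 0.15 and gave 544 upregulated and 181 downregulated DEGs. With the replicate number as a block there were 389 DEGs, of which 188 were upregulated, and 1 gene had an adjusted P of at most 0.05. Deviations of same-numbered libraries from their group means correlated at -0.67, 0.13 and -0.66. Deviations in groups this small depend on each other and on wildtype replicate 1, so they cannot show whether the numbers pair the libraries. Genes past an adjusted P of 0.05 numbered 38 with all 9 libraries, 1 to 8 with 1 library left out and 21 without wildtype replicate 1 and sam2Δ/sam2Δ replicate 3. The log2FC of SAM2 ranged from -12.44 to -11.78 with 1 library left out. Of the alternative values of the tested genes among the 156 named, 2343 kept direction and call, 303 lost the call, 26 gained it and 23 changed sign. Of the medians of lists 733 moved by less than the spread between fits and 149 by more. Signs changed with library totals for LEU4 (0.060) and ILV1 (0.019), and without wildtype replicate 1 and sam2Δ/sam2Δ replicate 3 for LEU2 (-0.016), ILV1 (0.27), STE4 (-0.0060), STE5 (-0.052), FUS3 (-0.049), RME1 (-0.091), MF(ALPHA)1 (-1.15) and STE3 (-0.15). Leaving out 1 library at a time gave a range across 0, or one near it, for the log2FC of PLM2 (-0.19 to 0.66), LEU2 (-0.27 to 0.29), LEU4 (-0.43 to 0.24), ILV1 (-0.35 to 0.14), GPA1 (-0.033 to 0.83), STE4 (0.052 to 0.64), STE5 (-0.15 to 0.88), FUS3 (-0.19 to 0.87), RME1 (0.098 to 0.72), MF(ALPHA)1 (-1.17 to 1.96), STE3 (-0.19 to 1.11) and ADE2 (-0.15 to 0.76). The cause was not tested. The count tests planned for recovered whole reads were not run, because only 94.7% to 96.0% of the values with a signal up to 100 lay within 0.05 of a whole multiple of 1 read, with regions that share a locus as the exceptions. At the depth of sam2Δ/sam2Δ replicate 2 a signal of 10 rests on about 5 reads.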
